A study of Mus musculus with 48 samples.

Results

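Kruppel-like factors and the FoxO genes of cell quiescence were followed here as 10 named genes: Foxo1, Foxo3, Txnip, Irs2, Klf2, Klf4, Klf6, Klf9, Klf10 and Klf15. A gene's members were all probe sets that the array's annotation gives to its symbol, which came to 27 of 45037 probe sets, and the probe set with the highest mean stood for the gene, as it did for each of the 18193 genes with 1 symbol. The cells were all NIH3T3, 1 established mouse fibroblast line, grown to confluence in medium with serum. Every culture received forskolin, which activates adenylyl cyclase and brings the clocks of separate cells into step, and no untreated culture was analysed here. RNA was taken each hour from hour 20 to hour 67 after forskolin and each of the 48 samples was put on 1 Affymetrix array, so no hour has a replicate. Hours 44 to 67 form the second daily cycle and hours 20 to 43 the first.

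FoxO proteins are forkhead transcription factors that growth factor signalling, through Akt, holds out of the nucleus, and that switch on genes of cell cycle arrest, stress resistance and catabolism when that signal is low. Irs2 is an adaptor that carries the signal from the insulin and IGF-1 receptors, and it is itself a FoxO target. Txnip is an alpha-arrestin that binds thioredoxin and restrains glucose uptake. The Kruppel-like factors are zinc finger proteins that bind GC-rich boxes. Klf2 and Klf4 are known for quiescence and differentiation, Klf6 and Klf10 respond to serum and TGF-beta, and Klf9 and Klf15 are glucocorticoid targets that cycle in several tissues.

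The main pattern was a slow drift and not a daily rhythm. Txnip, Klf10, Klf4, Foxo1, Klf9 and Klf6 rose over the 48 h, Klf2 fell, and Foxo3, Irs2 and Klf15 gave no trend past the test. No gene of the 10 passed a test for a 24 h, 12 h or 8 h rhythm in the same samples in which 9 of 11 clock and clock output genes passed the 24 h test. The clock genes Per1 and Arntl (Bmal1) did not pass it, so missing this test does not exclude a weak rhythm.

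Promoters of 9 of the 10 genes were matched in RefSeq (mouse build GRCm38.p6), each 300 bases long with 250 before the start of the gene and 50 after. All but Klf10 were matched. The 4 printed here belong to the falling gene, Klf2, and to 3 rising genes that show the motif of a forkhead factor or of the clock, and capitals mark every match on either strand to the motifs named below.
Txnip, chr3:96557707-96558006, plus strand: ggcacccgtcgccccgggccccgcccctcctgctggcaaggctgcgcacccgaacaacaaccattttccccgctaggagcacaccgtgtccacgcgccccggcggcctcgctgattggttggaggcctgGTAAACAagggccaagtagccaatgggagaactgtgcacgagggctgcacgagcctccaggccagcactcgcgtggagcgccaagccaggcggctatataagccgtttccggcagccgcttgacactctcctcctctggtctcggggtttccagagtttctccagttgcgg
Klf9, chr19:23140976-23141275, plus strand: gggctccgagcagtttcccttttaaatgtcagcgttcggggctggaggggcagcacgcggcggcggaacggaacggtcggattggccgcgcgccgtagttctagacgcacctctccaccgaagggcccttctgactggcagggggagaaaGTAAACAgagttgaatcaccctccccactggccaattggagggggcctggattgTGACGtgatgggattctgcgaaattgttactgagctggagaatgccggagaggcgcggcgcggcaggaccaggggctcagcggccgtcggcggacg
Klf6, chr13:5861239-5861538, plus strand: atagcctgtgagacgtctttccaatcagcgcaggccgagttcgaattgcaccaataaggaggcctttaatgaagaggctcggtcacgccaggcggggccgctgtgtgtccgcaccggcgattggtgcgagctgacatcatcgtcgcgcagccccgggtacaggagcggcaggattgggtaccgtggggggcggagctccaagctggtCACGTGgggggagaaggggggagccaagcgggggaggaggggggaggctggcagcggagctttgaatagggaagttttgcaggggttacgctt
Klf2, chr8:72318812-72319111, plus strand: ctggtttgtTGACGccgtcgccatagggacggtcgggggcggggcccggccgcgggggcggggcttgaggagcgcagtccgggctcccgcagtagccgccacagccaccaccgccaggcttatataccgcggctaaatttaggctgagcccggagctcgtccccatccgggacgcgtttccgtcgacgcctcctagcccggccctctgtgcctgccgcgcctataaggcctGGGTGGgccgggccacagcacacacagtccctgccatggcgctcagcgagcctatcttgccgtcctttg

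The forkhead motif GTAAACA stood in the Txnip and Klf9 promoters, 121 and 100 bases before the start, and in no other of the 9, against 3.65% of 32851 promoters of this length. The E-box CACGTG, which the clock proteins bind, stood in 4 of 9 (Klf4, Klf6, Irs2 and Klf15, the last with 3 copies), against 7.15% of all promoters. TGACG, the core of the cyclic AMP response element, stood in 5 of 9 (Klf2, Klf4, Klf9, Klf15 and Foxo3), against 20.8%, and the full site TGACGTCA, which contains it on both strands, in 0 of 9, against 1.79%. In the Klf15 promoter the last TGACG overlaps the last E-box. The KLF box CCACCC stood on the minus strand of Klf2 only (1 of 9, against 31.5%), and TATAAA and the CArG box, the SRF site, in 0 of 9, against 13.6% and 1.63%. A match is a description of letters in this window and not a site shown to be used.

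Array quality bears on several values below. The difference of the 3′ and 5′ β-actin probe sets, a measure of how far the labelled RNA reaches from its 3′ end, had a median of 1.13 on the log2 scale and exceeded 1.4 in 10 arrays, of which 3 lay in hours 44 to 67 and 7 in hours 20 to 43. The BioB spike-in was 0.90 higher at hours 52 to 55 than at the other hours. The labelled cell type held: 9 of 10 fibroblast markers lay above the median of all probe sets (6.67 on the log2 scale), with Fap the exception, and all 6 endothelial and 6 epithelial markers lay below it. Of the 6 macrophage markers Cd68 and Cd14 lay above it, and of the 4 adipocyte markers measured Fabp4 did.

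Each value below is log2 of the deposited intensity of 1 probe set, and a slope is the linear term of a fit over 48 arrays that also held a 24 h cosine, in log2 units per 24 h ± the standard error of the fit. Trends were tested with limma over all 45037 probe sets with Benjamini-Hochberg adjustment at 0.05. Probe sets of a gene are numbered by falling mean level, so that probe set 1 is the brightest. Such p-values measure the spread of single arrays around a curve, and in whole cultures fewer cells with a transcript and less of it per cell cannot be told apart. Of the 10 genes, 7 had a trend past the test, against 30.4% of all probe sets. A rise was called in 6 of 10, against 14.2%, and a fall in 1 of 10, against 16.2%. Bright probe sets pass more often. Over all 27 probe sets 18 rose and 1 fell, and over the 22 above the median 17 rose and 1 fell. Of all probe sets above the median 52.8% passed, 26.4% rising and 26.4% falling. Several of the 27 belong to the same gene, so these are not counts of separate genes. By brightest probe set every gene but Klf15 lay above the median, and Klf15 was not called. The median slope of the 10 genes was 0.10, against -0.00 over all probe sets tested.

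Markers of cell types moved over the same hours. Of the 10 fibroblast markers 4 rose and 3 fell, with Thy1 at -0.45 ± 0.02 per 24 h, and log2 of their summed intensity lay between 21.45 and 21.58 in hours 44 to 67 and between 21.46 and 21.56 in hours 20 to 43. Of the 4 adipocyte markers Fabp4, a fatty acid binding protein, rose by 0.58 ± 0.03, while Adipoq, Lep and Pparg lay near the floor, and the sum lay between 15.73 and 16.34 in the later hours and between 14.91 and 15.92 in the earlier ones. Of the 6 macrophage markers 2 fell, Cd14 (-0.40 ± 0.05) and the dim Csf1r (-0.48 ± 0.18, and -0.04 without the 10 arrays), while Ptprc, Adgre1 and Itgam lay near the floor, and the sum lay between 12.25 and 13.04 in the later hours and between 12.76 and 13.74 in the earlier ones. Their part in the trends of the 10 genes was not tested.

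**Figure D1:**
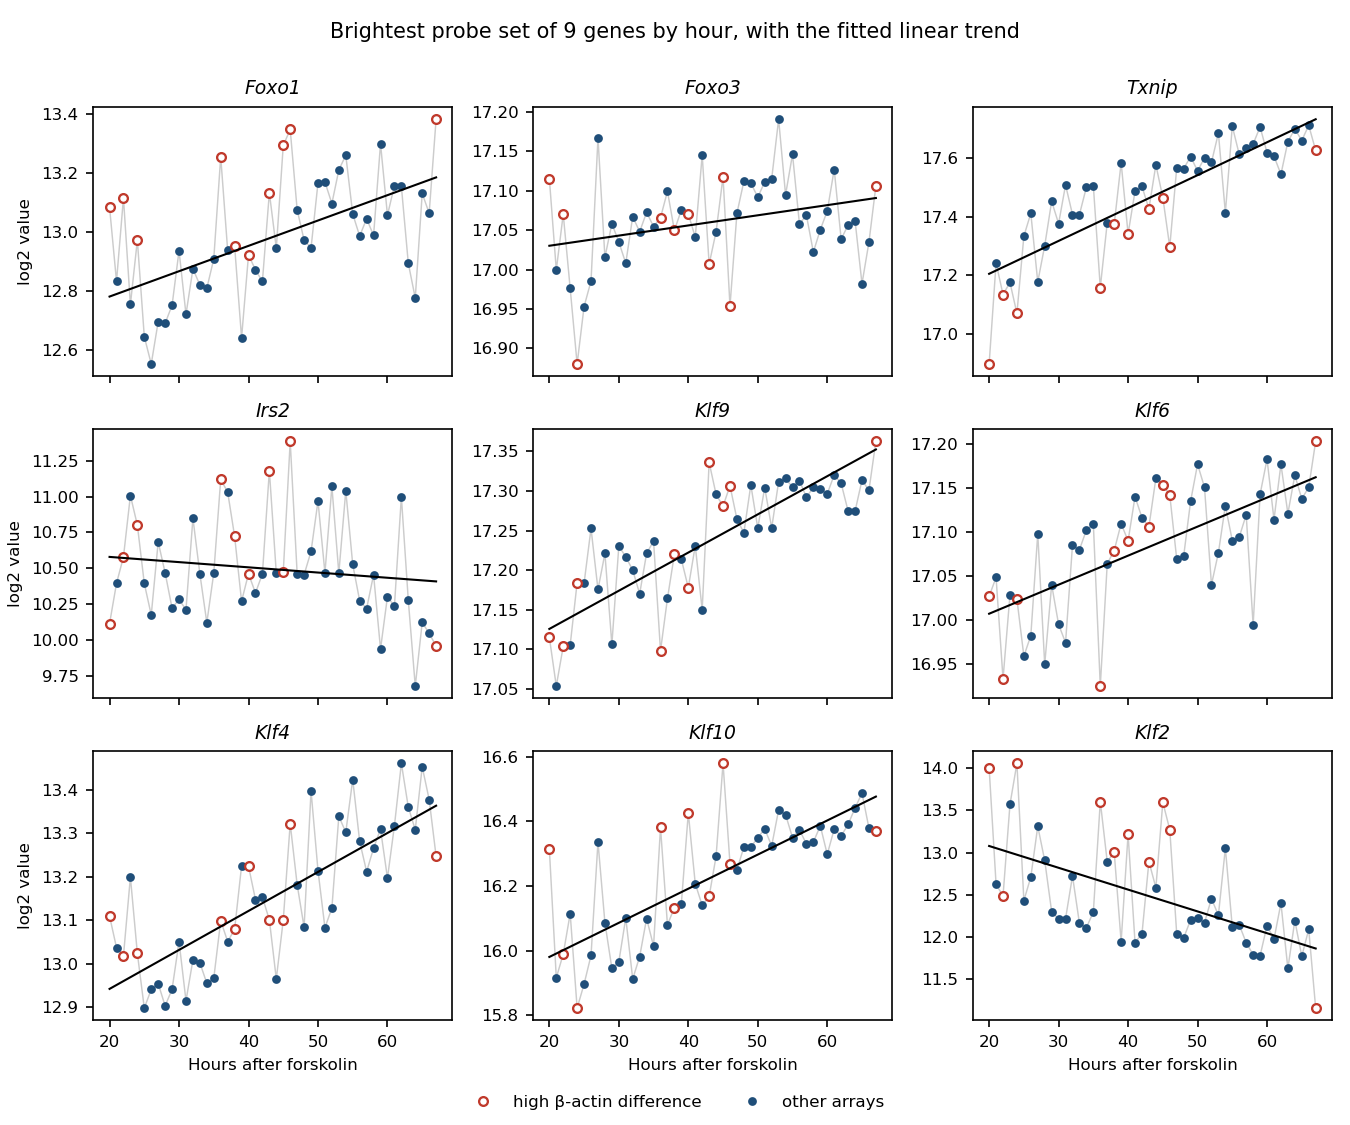
Log2 value of the brightest probe set (y axis, its own range in each panel) against hours after forskolin for 9 genes; each point is 1 array, open red points are the 10 arrays of high β-actin difference, and the black line is the fitted linear trend. Every hour of the second cycle exceeds the same phase of the first in Txnip and Klf9, whereas Klf2 is high mainly at open points and lowest at hour 67.

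Among the FoxO genes, Foxo1 rose. Its brightest probe set ranged between 12.55 at hour 26 and 13.38 at hour 67 on the log2 scale, with a median of 12.97. It averaged 13.10 ± 0.15 in hours 44 to 67 and 12.86 ± 0.17 in hours 20 to 43 (SD over 24 hours each), and the later hour was higher in 21 of 24 pairs of the same phase. Its slope was 0.21 ± 0.05 per 24 h (limma, adjusted p = 0.000322). With 8 means of 6 hours in place of 48 single hours the slope was 0.22 ± 0.07 and did not pass (adjusted p = 0.125), and with the first principal component of all probe sets as a covariate it was 0.44. Foxo1 probe set 2 ranged between 11.71 at hour 24 and 12.65 at hour 52 and rose by 0.24 ± 0.04 per 24 h (adjusted p = 5.11e-07), so both moved the same way.

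Foxo1 probe set 3 behaved differently. It lay between 6.29 at hour 26 and 9.62 at hour 45, a span of 3.33, and its slope of 0.21 ± 0.21 did not pass (limma, adjusted p = 0.375). It correlated with the brightest at r = 0.59 and with probe set 2 at r = 0.18 (Pearson, n = 48 hours of the same arrays, as a description). Probe set 4 stayed near the floor of the array at a median of 5.55.

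Foxo3, the other FoxO gene, varied least of the 9 genes above the median (SD 0.06 over 48 hours). It lay between 16.88 at hour 24 and 17.19 at hour 53 with a median of 17.06, and it averaged 17.08 ± 0.05 in hours 44 to 67 and 17.04 ± 0.06 in hours 20 to 43 (SD, 24 hours each). The later hour was higher in 13 of 24 pairs. The slope of 0.03 ± 0.02 per 24 h missed the test (limma, adjusted p = 0.10), while that of probe set 2, 0.05 ± 0.02, passed (adjusted p = 0.0276), and the intervals of 1 SE overlap. Foxo3 probe set 3 had a median of 5.53 and no trend past the test (adjusted p = 0.920).

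Txnip rose in both of its probe sets. Its brightest probe set was lowest at hour 20 (16.90 on the log2 scale) and highest at hour 66 (17.71), with a median of 17.50. Over the 4 successive blocks of 12 hours it averaged 17.26 ± 0.18, 17.42 ± 0.11, 17.55 ± 0.11 and 17.64 ± 0.05 (SD, n = 12 hours each). Each of the 24 hours of the second cycle was higher than the same phase of the first. The slope was 0.27 ± 0.03 per 24 h (limma, adjusted p = 3.83e-11), a fitted 1.44-fold rise over 47 h, and 0.09 with the first principal component of all probe sets as a covariate (adjusted p = 0.00974). Txnip probe set 2 followed the same course on a wider scale, between 12.60 at hour 20 and 15.65 at hour 65, with a slope of 0.93 ± 0.14 (adjusted p = 2.35e-07) and r = 0.94 with the first over 48 hours.

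Irs2 had 1 probe set and no trend past the test. It lay between 9.68 at hour 64 and 11.39 at hour 46 with a median of 10.46, and its slope was -0.09 ± 0.10 per 24 h (limma, adjusted p = 0.437). The 12 h blocks averaged 10.44 ± 0.28, 10.62 ± 0.35, 10.70 ± 0.32 and 10.21 ± 0.32 (SD, n = 12 hours each), so the lowest block was the last, and its values overlap those of every other block. Single hours stood out more than blocks: hour 46 exceeded the mean of its neighbours by 0.92 and hour 62 by 0.74, where the SD of such differences was 0.37 over 46 inner hours.

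Klf9 and Klf6 were bright, and their brightest probe sets moved little, but steadily, while most of their other probe sets above the median rose more. Klf9 lay between 17.05 at hour 21 and 17.36 at hour 67 with a median of 17.25. It averaged 17.30 ± 0.03 in hours 44 to 67 and 17.18 ± 0.06 in hours 20 to 43 (SD, 24 hours each) and was higher in the second cycle in all 24 pairs. Its slope was 0.12 ± 0.01 (limma, adjusted p = 6.07e-12), and 53.9% of probe sets above the median had a larger one in either direction.

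The other Klf9 probe sets above the median rose as well. The slope was 0.26 ± 0.02 for probe set 2, 0.14 ± 0.04 for probe set 3, 0.35 ± 0.05 for probe set 4 and 0.39 ± 0.05 for probe set 5, and all passed (limma, adjusted p between 9.23e-18 and 0.00128). Of the pair below the median, probe set 6 had a slope of 0.12 ± 0.05 (adjusted p = 0.0318), with a median of 5.56 and single arrays of up to 6.36 at hour 55 and 6.20 after it, and probe set 7 spanned 0.02. With the 10 arrays named above left out the slope of probe set 6 no longer passed (adjusted p = 0.0617).

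Klf6, a factor induced by serum and injury, lay between 16.93 at hour 36 and 17.20 at hour 67 with a median of 17.10. It averaged 17.13 ± 0.05 in hours 44 to 67 and 17.04 ± 0.06 in hours 20 to 43 (SD, 24 hours each), with 22 of 24 pairs higher in the second cycle, and had the smallest slope called among brightest probe sets, 0.08 ± 0.01 (limma, adjusted p = 5.23e-06). Its probe sets 2, 3 and 4 rose by 0.18 ± 0.02, 0.30 ± 0.05 and 0.29 ± 0.07 per 24 h and passed. Klf6 probe set 5, which the array maker's suffix marks as able to match other genes, had a slope of -0.11 ± 0.06 (adjusted p = 0.147). Klf6 probe set 2, Klf9 probe set 5 and the brightest Foxo1 probe set carry another suffix, for probes that match more than 1 transcript.

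**Figure D2:**
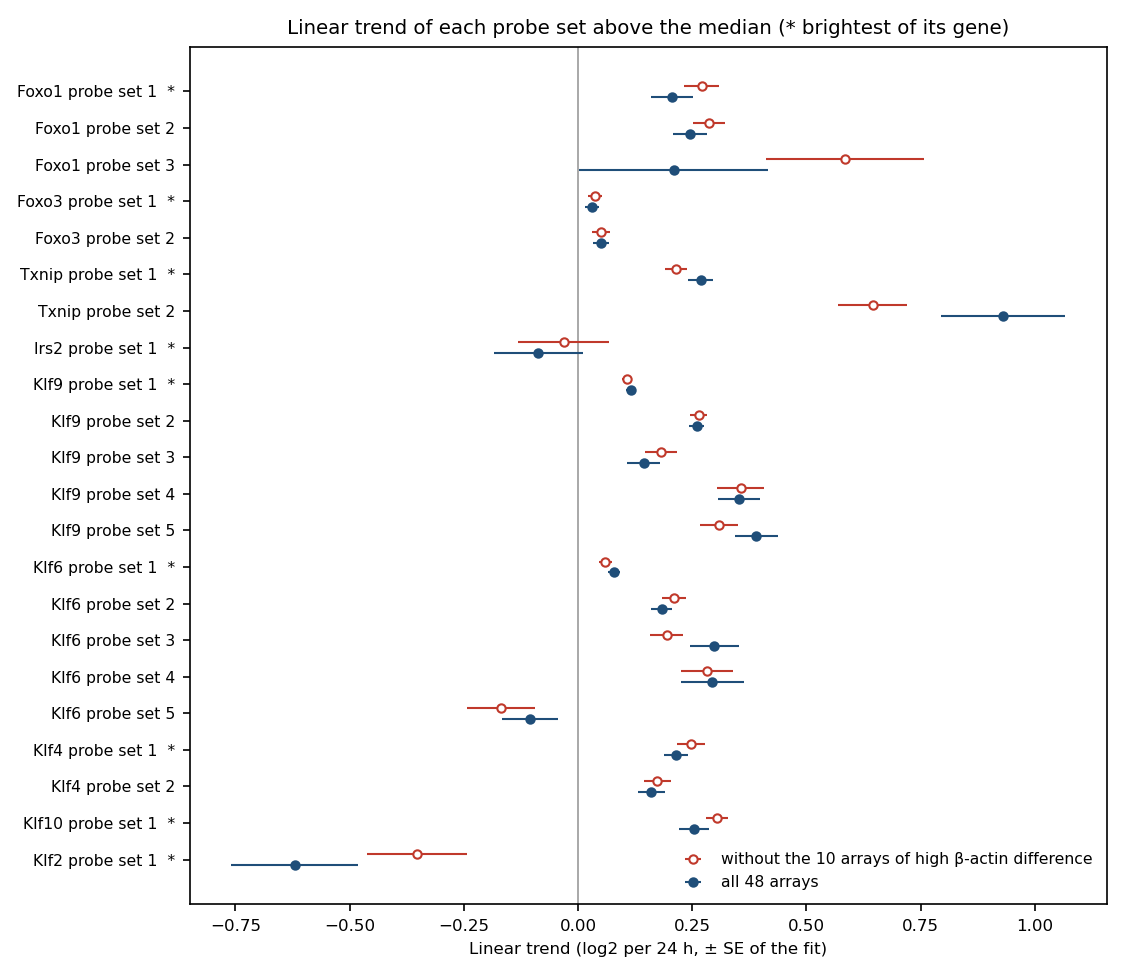
Linear trend (x axis, log2 per 24 h, bars ± SE of the fit) of the 22 probe sets above the median, over all 48 arrays and with the 10 of high β-actin difference left out; an asterisk marks the brightest probe set of a gene. All lie right of 0 but those of Irs2, Klf2 and Klf6 probe set 5, and those of Txnip probe set 2, Foxo1 probe set 3 and Klf2 shift most when the 10 arrays are left out.

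Klf4 and Klf10 both rose. Klf4, a factor of differentiation and growth arrest, lay between 12.90 at hour 25 and 13.46 at hour 62 with a median of 13.14. It averaged 13.26 ± 0.13 in hours 44 to 67 and 13.04 ± 0.10 in hours 20 to 43 (SD, 24 hours each), and no hour after hour 55 lay below the mean of hours 20 to 43. Its slope was 0.22 ± 0.03 per 24 h (limma, adjusted p = 4.30e-09), with 0.16 ± 0.03 for probe set 2 (adjusted p = 1.43e-05), and 22 of 24 pairs were higher in the second cycle.

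Klf10, an early target of TGF-beta, lay between 15.82 at hour 24 and 16.58 at hour 45 with a median of 16.31. It averaged 16.37 ± 0.07 in hours 44 to 67 and 16.09 ± 0.16 in hours 20 to 43 (SD, 24 hours each). The rise of 0.25 ± 0.03 per 24 h (limma, adjusted p = 1.54e-08) was not even, since the blocks averaged 16.04 ± 0.16, 16.14 ± 0.15, 16.36 ± 0.09 and 16.38 ± 0.05 (SD, n = 12 hours each), so that the last pair of blocks differed by less than their spread. The values also lay closer together in the later blocks than in the earlier ones. With the first principal component as a covariate the slope was 0.40.

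Klf2 was the 1 gene that fell, and its values were the most scattered of the 9 above the median. It lay between 11.16 at hour 67 and 14.06 at hour 24 with a median of 12.24, and its 12 h blocks averaged 12.90 ± 0.67, 12.57 ± 0.56, 12.50 ± 0.53 and 11.92 ± 0.32 (SD, n = 12 hours each). The later hour was lower in 20 of 24 pairs. Its slope was -0.62 ± 0.14 per 24 h (limma, adjusted p = 0.000360), a fitted 2.32-fold fall over 47 h, and 5.79% of probe sets above the median had a larger slope in either direction. With the first principal component of all probe sets as a covariate the direction turned, to 0.43 (adjusted p = 0.000297).

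Klf15 was not measured above the floor: its only probe set had a median of 5.52 and spanned 0.04 between the lowest and the highest array. Its slope of -0.01 ± 0.00 did not pass (limma, adjusted p = 0.0806), and passed once the 10 arrays named above were left out (adjusted p = 0.0480), where 29.0% of all probe sets were called falling.

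The β-actin difference was set beside each gene. In a fit with that difference as a further term, a comparison added after the data were seen, 9 of the 27 probe sets had a coefficient past the test (limma, adjusted at 0.05), against 36.7% of all probe sets. All 9 lie above the median, and the share of all probe sets above it was not counted. Whether the members moved with it more or less often than others of their level therefore cannot be said. Klf2 gained 1.15 ± 0.18 on the log2 scale per log2 unit of the difference (adjusted p = 4.69e-07). In the 10 arrays of high difference it had a lowest value of 11.16, a median of 13.24 and a highest value of 14.06, against 11.63, 12.20 and 13.57 in the other 38. The groups overlap, but 4 of the 10 were above every other array, 7 of the 10 highest values of Klf2 came from them, and hour 67, also among them, was the lowest of all. The fall of Klf2 was smaller with the term (-0.44 ± 0.10, adjusted p = 0.000576) and without those arrays (-0.35 ± 0.11, adjusted p = 0.0125), and passed in both.

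Probe sets of 1 gene differed in this respect. Txnip probe set 2 had a coefficient of -1.39 ± 0.12 (limma, adjusted p = 3.06e-13) and Txnip probe set 1 one of -0.21 ± 0.04 (adjusted p = 1.20e-05). In the 10 arrays Txnip probe set 2 had a median of 14.14, against 15.21 in the other 38, and it was below the mean of its neighbours in all 8 of those arrays that have a neighbour on each side. Without the 10 arrays its slope was 0.65 ± 0.08 and that of probe set 1 0.21 ± 0.02, and both passed (adjusted p = 8.24e-09 and 3.74e-09).

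For Foxo1 the coefficients ran the other way. That of probe set 3 was 1.79 ± 0.25 (limma, adjusted p = 5.83e-08) and that of the brightest probe set 0.37 ± 0.06 (adjusted p = 8.07e-07), while probe set 2 had 0.09 ± 0.06 and did not pass (adjusted p = 0.349). The brightest probe set exceeded the mean of its neighbours in 8 of those 8 arrays. Without the 10 arrays probe set 3 had a slope of 0.58 ± 0.17 that passed (adjusted p = 0.00842), whereas it had not passed over all arrays.

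Klf10 had a coefficient of 0.23 ± 0.05 (limma, adjusted p = 8.25e-05), Klf9 probe set 3 0.19 ± 0.06, Klf9 probe set 5 -0.37 ± 0.06 and Klf6 probe set 3 -0.49 ± 0.06, each past the test. The brightest probe sets of Klf4, Klf6, Klf9, Foxo3 and Irs2 had none past it. The part of RNA length in these differences was not tested beyond the fits given, and the 6 rising genes and Klf2 kept their calls with the term and without the 10 arrays.

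**Figure D3:**
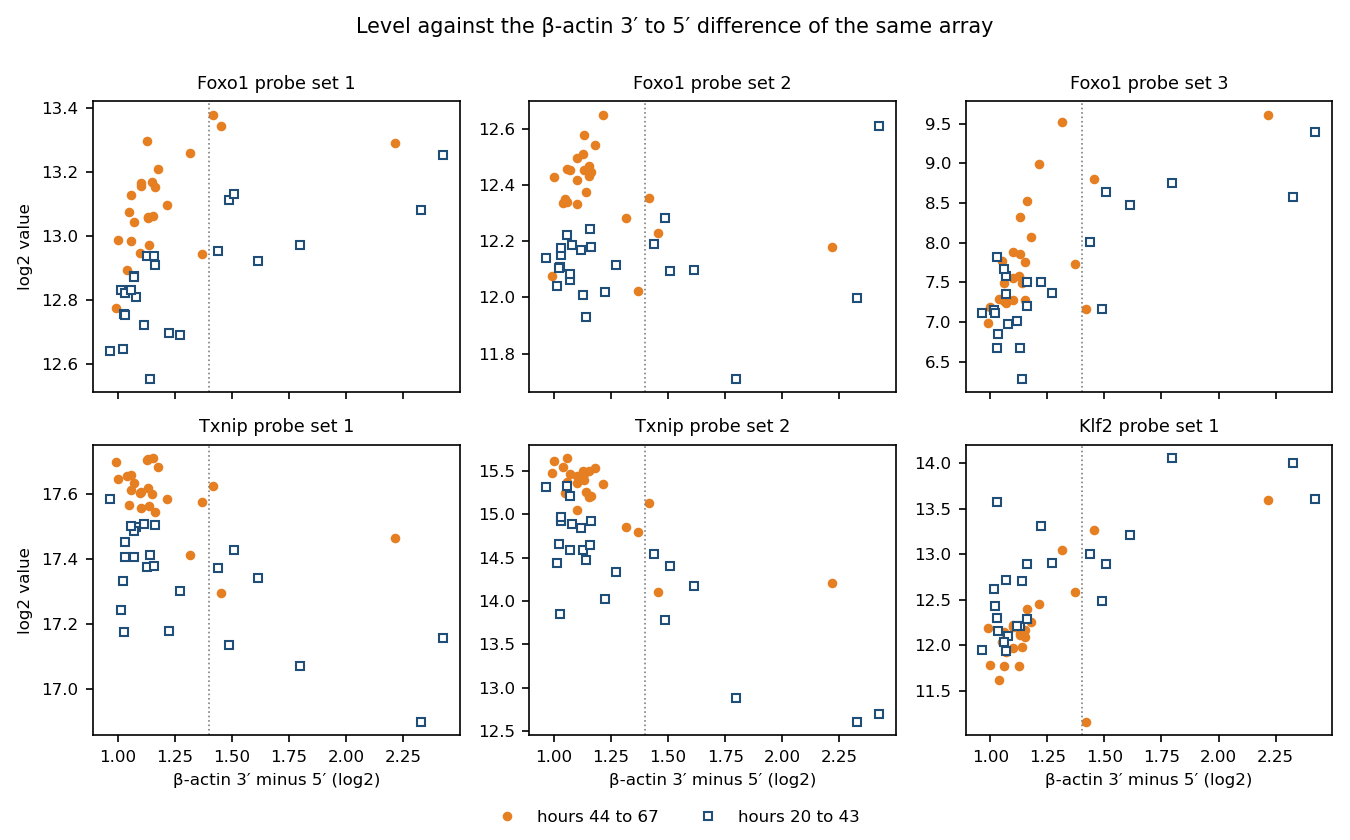
Log2 value of 6 probe sets (y axis) against the β-actin 3′ minus 5′ difference of the same array (x axis, log2); filled orange points are hours 44 to 67, open blue squares hours 20 to 43, and the dotted line marks 1.4. Txnip probe set 2 drops and Foxo1 probe set 3 and Klf2 climb from left to right, whereas the coefficient of Foxo1 probe set 2, 0.09, did not pass the test.

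Single arrays can be read only against their neighbours. The largest such departure of Klf2 was 1.28 above the mean of its neighbours at hour 40 and 1.17 below it at hour 39 (SD 0.56 over 46 inner hours). Foxo1 probe set 3 reached 2.04 above at hour 36, the array of the highest β-actin difference (2.42), and Txnip probe set 2 was 2.09 below at the same hour. Of the 9 bright genes, 3 stood more than 2 SD from their neighbours at hour 36 (Klf10 above, Klf6 and Txnip below) and 3 at hour 27 (Klf6, Klf10 and Foxo3, all above), where the β-actin difference was 1.22. How many of all probe sets stood as far from their neighbours at these hours was not counted, so the counts cannot be read as particular to these genes.

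Whether any of the genes followed the clock was asked with a 24 h cosine. By limma's moderated F-test 0 of 10 genes and 0 of 27 probe sets passed, against 0.293% of all probe sets, and at an unadjusted p under 0.05 there were 2 genes (Klf9 and Txnip) and 5 probe sets, against 9.45% of all probe sets. Fitted amplitudes of the 9 genes above the median, from mean to peak, ran between 0.02 ± 0.01 for Foxo3 and 0.15 ± 0.10 for Klf2. Among the clock genes, Per1 (0.22 ± 0.05, adjusted p = 0.138) and Arntl (0.16 ± 0.04, adjusted p = 0.0780) did not pass either. Amplitudes as large as that of Klf2 can therefore miss this test. Klf9, a gene that cycles in other tissues, reached 0.03 ± 0.01, peaking at hour 26.9 ± 1.25 (adjusted p = 0.414). Klf9 probe set 2 reached 0.05 ± 0.01, peaking at hour 28.5 ± 1.05 (adjusted p = 0.202), and Txnip 0.05 ± 0.02, peaking at hour 30.8 ± 1.61 (adjusted p = 0.517). The fitted ratio of peak to trough was 1.04 for Klf9 and 1.08 for Txnip.

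**Figure D4:**
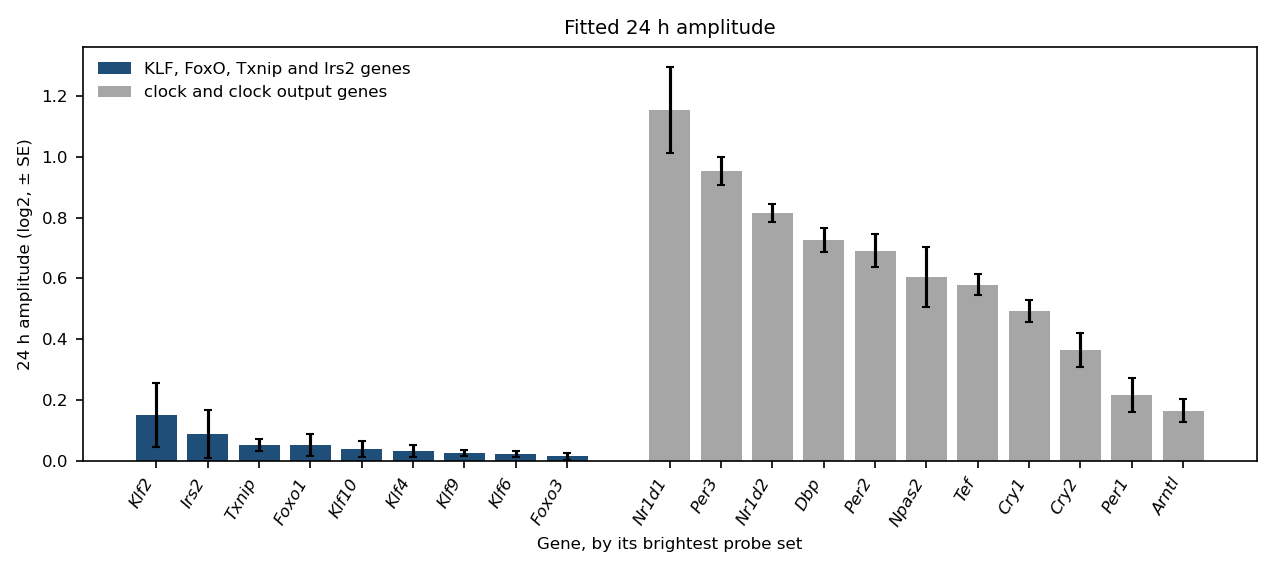
Fitted 24 h amplitude (y axis, log2 from mean to peak, bars ± SE of the fit) of the 9 genes above the median, left, and of 11 clock and clock output genes, right. The tallest bar on the left, Klf2 at 0.15, carries an error of 0.10, and 9 of the 11 on the right passed the test.

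A pair of other rhythm tests, a cosine fit over periods of 6 to 30 h and Fisher's G-test, called 0 of 10 genes at about 24 h (0.198% of all probe sets), 0 at about 12 h (0%) and 0 at about 8 h (0.0178%). A call also required the strongest period of the G-test to be 24, 12 or 8 h. In the G-test, which was run without removing the trend, 20 of the 22 probe sets above the median had their strongest period at 48 h, the length of the course. The same held for the brightest probe set of every gene, so none could be called in this form. With the trend removed before the G-test, or with no demand on its period, 0 of 10 genes were called as well. At about 24 h those settings called 0.151% and 0.309% of all probe sets. The cosine fit of Foxo1, with the lowest p of the 10 genes, had a q of 0.081. With the cosine fit alone at q under 0.1, Klf6 was called at 29.5 h, where 6.05% of all probe sets were called at about 24 h, and Klf4 at 8.3 h and Foxo1 at 7.7 h, where 27.7% were called at about 8 h. The unadjusted p of that cosine fit was 0.183 for Klf6, 0.0606 for Klf4 and 0.0130 for Foxo1. Beyond the brightest probe sets, Klf9 probe sets 2 and 5 were called at 24.2 and 25.9 h, and Klf6 probe set 5 at 8.1 h. The cosine did not differ between the second and the first cycle past the test in any of the 10 genes (limma, 1.82% of all probe sets called), in a fit with a term for hours 52 to 55. Without that term it differed for Klf4 (adjusted p = 0.0474), Foxo3 (0.0270) and Klf15 (0.00196), as it did for 49.0% of all probe sets.

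The genes around these factors were read from lists that were themselves chosen with earlier results known. Of 10 other Kruppel-like factors measured, 6 rose, 1 fell and 3 did not pass, with a median slope of 0.19, against 14.2% rising and 16.2% falling of all probe sets. The 7 called are those above the median, where 26.4% rose and 26.4% fell. Klf7 rose by 0.49 ± 0.12 per 24 h, Klf11, a TGF-beta-inducible relative of Klf10, by 0.49 ± 0.08, Klf13, the closest relative of Klf9, by 0.48 ± 0.04, and Klf5, a factor of proliferating cells, by 0.41 ± 0.08. Klf16 had the 1 fall, -0.26 ± 0.04. The Klf7 probe set had a β-actin coefficient of -1.32 and a slope of 0.23 without the 10 arrays. Klf1, Klf14 and Klf17 lay below the median.

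Between the insulin receptor and FoxO, 11 of 17 measured genes rose, 0 fell and 6 did not pass, all of them above the median, where 26.4% of probe sets rose and 26.4% fell. Sgk3, a kinase related to Akt, rose by 0.53 ± 0.05 per 24 h, Pik3r2 and Pik3r3, regulatory subunits of PI3-kinase, by 0.41 ± 0.08 and 0.34 ± 0.03, and Irs1, the paralogue of Irs2, by 0.33 ± 0.03 (limma, adjusted p = 5.86e-11). Irs1 therefore had a rise where Irs2 had none past the test. The receptor genes Insr and Igf1r rose by 0.15 ± 0.04 and 0.12 ± 0.03, and Foxo4 by 0.09 ± 0.02. Igf1r had a β-actin coefficient of -0.31 and a slope of 0.06 without the 10 arrays. Without the 10 arrays named above, an alternative added after the data were seen for each list, 11 rose and 2 fell (Phlpp1 and Sgk1).

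FoxO target genes moved in both directions. Of 20 measured, all above the median, 9 rose, 5 fell and 6 did not pass, against 26.4% rising and 26.4% falling, so the share of falls was near that of all such probe sets. The median slope was 0.07. Trim63 and Fbxo32, ubiquitin ligases of muscle wasting, rose by 2.40 ± 0.18 and 0.57 ± 0.04 per 24 h, Gadd45a, a growth arrest gene, by 1.21 ± 0.04 (limma, adjusted p = 1.97e-27), and Bcl2l11, which encodes the pro-apoptotic Bim, by 0.56 ± 0.04. Gabarapl1 and Map1lc3b, of autophagy, rose by 0.38 ± 0.04 and 0.14 ± 0.02. Of the genes that fell, Tob1 had -0.26 ± 0.04, Sod2, the mitochondrial superoxide dismutase, -0.24 ± 0.03, and the transcriptional repressor Bcl6 -0.20 ± 0.03. The stress-response gene Sesn3 (-0.20 ± 0.03) and Cited2 (-0.12 ± 0.01) fell as well. Cdkn1b, which encodes the Cdk inhibitor p27, had 0.04 ± 0.04 and did not pass (adjusted p = 0.378). Without the 10 arrays 9 rose and 5 fell, with Ccng2 called in place of Sesn1.

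Among thioredoxin and alpha-arrestin genes 2 of 11 rose, 5 fell and 4 did not pass, with 10 of the 11 above the median, where 26.4% rose and 26.4% fell. The risers were Arrdc2 (0.31 ± 0.07 per 24 h) and Arrdc4, the closest relative of Txnip, at 0.27 ± 0.03 (limma, adjusted p = 8.22e-11), with Txnip itself at 0.27 ± 0.03. Txnrd2, Txnrd1 and Txn1, the thioredoxin reductases and the thioredoxin that Txnip binds, had -0.52 ± 0.11, -0.09 ± 0.01 and -0.09 ± 0.01. Txnrd2 had a β-actin coefficient of 0.91 and a slope of -0.33 without the 10 arrays. Without those arrays 2 genes of the list rose and 5 fell, but the genes were not all the same. Mlx, called over all arrays at -0.09 ± 0.04, had -0.02 and did not pass. Arrdc3, not called over all arrays at -0.05 ± 0.02, had -0.11 and passed (limma, adjusted p = 1.59e-06). Mlxip, a glucose-sensing factor that acts on Txnip, had -0.08 ± 0.03, and Mlxipl lay below the median. None of the 4 lists had a member past the 24 h cosine test.

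**Figure D5:**
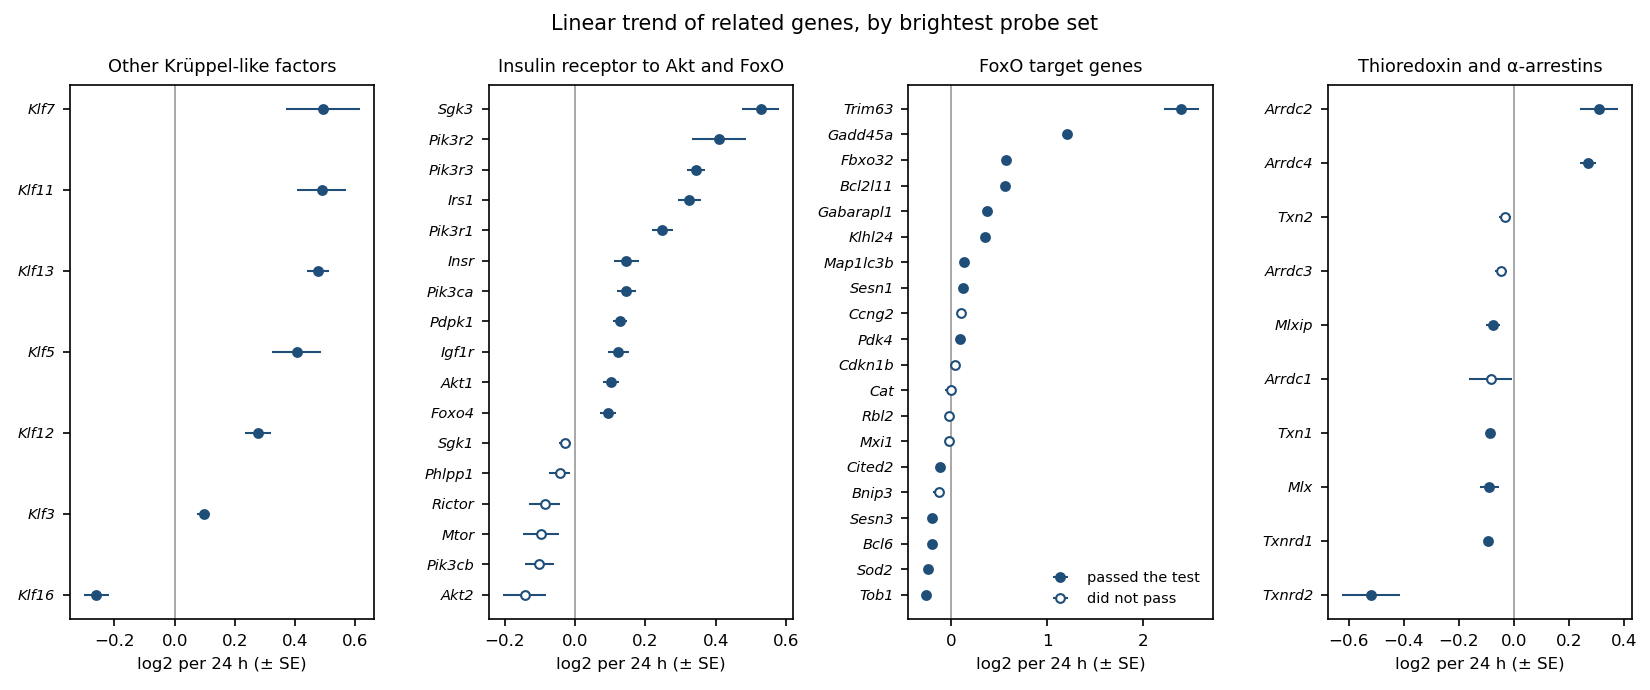
Linear trend (x axis, log2 per 24 h, bars ± SE of the fit, each panel with its own scale) of the genes of 4 lists above the median, by brightest probe set; filled points passed the test and open points did not. Rises lead among the other Kruppel-like factors and from the insulin receptor to FoxO, the FoxO targets lie on both sides of 0, and of the thioredoxin group only Arrdc2 and Arrdc4 lie to the right.

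The genes most like each of the 7 called genes were found by Pearson r of log2 values over the 48 hours among 10365 other genes above the median. Hours share their arrays and their trend, so r is a description. For Txnip they were Sox4 (r = 0.95), Fnip2 (0.95) and Gpc4 (0.95), for Klf2 Kat2a (0.95), Ube3b (0.95) and Col5a1 (0.95), and for Klf10 Crebl2 (0.89), Arhgef2 (0.88) and Mylk (0.87). The genes nearest Foxo1 were Vopp1 (0.87), Fam234a (0.87) and Marchf2 (0.82), those nearest Klf4 Gm41724 (0.87), Lurap1l (0.87) and Prelp (0.86), those nearest Klf9 Marcks (0.86), Vat1 (0.85) and Rcor3 (0.85), and those nearest Klf6 Syde2 (0.77), Lekr1 (0.76) and Pawr (0.76). The 3 neighbours of Txnip shared its negative β-actin coefficient (-0.23, -0.37 and -0.45) and those of Klf2 its positive one (0.82, 0.94 and 0.46). They were picked for moving with these genes over the same arrays, so the shared sign follows from the choice and is no separate result. Between the genes themselves Txnip and Klf2 ran opposite (r = -0.81), and Txnip and Klf9 (0.74) and Klf4 and Klf10 (0.69) ran together.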

How the data were processed

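Total RNA of forskolin-synchronised NIH3T3 cells was hybridised to Affymetrix mouse arrays, 1 per hour. The deposited values are linear intensity values, 1 per probe set, which the authors background-corrected and normalized between arrays. The methods name GCRMA, the submitters' processing notes name MAS5, without versions. Values were taken to log2 with no added constant, and their scaling constant is unknown, so a level has meaning only beside others of these arrays. No probe set was filtered out, 64 control probe sets were used only for array quality, and the number of arrays limits precision. Symbols came from the platform annotation and were matched to RefSeq symbols through gene identifiers for 34741 probe sets.

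Fits used limma 3.58.1 in R 4.3.3 on 48 arrays with a linear term and a 24 h cosine, tables and figures Python 3.11.15, numpy 2.4.6, pandas 2.3.3 and matplotlib 3.10.9. The cosine search of 6 to 30 h in steps of 0.1 h took p from 1000000 Gaussian null series after linear detrending, in place of COSOPT, and both rhythm tests used Storey q under 0.05. Each script was tested on simulated data. The members and lists were chosen with earlier results of these data known. Every member is named by every probe set, up to 4 genes with the largest slopes past the test of each list, and the 3 nearest genes of each called member. Other genes of the lists were named after their values were seen. Among them are Insr, Igf1r, Foxo4, Phlpp1, Sgk1, Gabarapl1, Map1lc3b, Tob1, Sod2, Bcl6, Sesn3, Cited2, Sesn1, Ccng2, Cdkn1b, Klf16, Txn1, Mlx, Arrdc3 and Mlxip.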

Additional observations from a re-analysis of the deposited data

How the results depend on the processing

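Counts of rhythmic genes stayed at 0 of 10 in the 24 h cosine test with 13 other settings (among them linear values, quantile normalization, median centring, a filter on dim probe sets, serial correlation and best-fit periods) and with any 1 of 48 arrays left out. With 6 h means 0 of all 45037 probe sets passed, so that setting says nothing of the members. The rhythm tests gave 1 gene at about 24 h and 2 at about 8 h with the cosine fit alone at q under 0.1, and 0 with the other settings. Rises were called in 5 to 7 of 10 genes. Falls were called in 2 genes without the 10 arrays above a β-actin difference of 1.4 and in 0 with the first principal component as a covariate, and in 1 to 2 with any 1 array left out, Klf15 joining without hour 37, 66 or 67. The principal component turned the slopes of Klf2 to 0.43 (adjusted p = 0.000297) and Irs2 to 0.31 (0.0783). It holds 41.7% of the variance and correlates with the β-actin difference at r = -0.73 over 48 arrays, and the cause was not tested. Foxo1 was no longer called with 8 means of 6 h (slope 0.22, adjusted p = 0.125). The other called slopes kept direction and call in these settings, but with the component Txnip had 0.09, Klf10 0.40 and Foxo1 0.44, and with a gene's probe sets averaged Txnip had 0.60, Klf6 0.15 and Klf9 0.20. The cosine differed between cycles for 3 genes without the term for hours 52 to 55.

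With 1 array per hour, an event of a single hour cannot be told from a fault of its array. Klf15 and 4 other probe sets lay below the median of all probe sets, and read near the floor on most arrays.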

Other observations

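The 4 arrays of hours 52 to 55, of 48 in all, held the highest value of 8 of the 27 probe sets and the lowest value of 4. Hour 54 alone was the highest for 4 probe sets. How often these arrays held the extremes of all probe sets was not counted, and the BioB spike-in was also higher in them. The counts therefore cannot be read as particular to these genes. Among those below the median, Klf9 probe set 6 was highest at hour 55 (6.36), Foxo3 probe set 3 at hour 54 (5.92) and Foxo1 probe set 4 at hour 56 (6.03), where they exceeded the mean of their neighbours by 0.76, 0.39 and 0.50. These were not always alone, since Foxo3 probe set 3 also reached 5.82 at hour 40 and Klf9 probe set 6 reached 6.20 after hour 55. At hour 54 Txnip stood 0.28 below the mean of its neighbours and Foxo1 probe set 3 reached 9.52. A term for these 4 hours left the 6 rises and the 1 fall called.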
